A study of Rattus norvegicus with 45 samples.

Results

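The 8 genes described here are Rasl10a, Rasl10b, Rasl11a, Rasl11b, Rasd1 and Rasd2, which encode small GTPases related to Ras, and Rasgrp1 and Rasgrp2, which encode exchange factors that load Ras or Rap with GTP and are not GTPases themselves. They were chosen by symbol, and the group was selected on a higher level of Rasl10a in striatum after antipsychotic drugs. Of the 8 listed genes, 7 had a probe set on the array, and Rasl11a had none. The 7 genes were covered by 12 of the 31099 probe sets, and 11 of these passed the filter on dim signal that left 18609 probe sets and 10248 genes for testing. A gene is represented by its brightest probe set, and its other probe sets are given beside it. The genes did not share a striatal pattern: Rasd2 and Rasgrp2 were far higher in striatum than in the other regions, whereas Rasl10a, Rasl11b and Rasd1 were lowest there.

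Each of 45 Affymetrix rat genome arrays held RNA of 1 brain region of 1 rat. The 15 animals were male, of the Sprague-Dawley strain, and 9 to 11 weeks old when osmotic minipumps were implanted. For 21 days, 5 rats received haloperidol at 0.25 mg/kg/d, 5 received risperidone at 5 mg/kg/d and 5 received vehicle, and every rat, vehicle rats included, carried a pump. Frontal cortex, hippocampus and striatum were taken from each rat (the tissue label reads mouse, while the organism, the strain and the array are rat). Haloperidol blocks dopamine D2 receptors, and risperidone blocks D2 and serotonin receptors. The deposited values were intensities after Robust Multi-array Average (RMA) and are given on the log2 scale, on which a difference of 1 is a doubling. All of them come from bulk tissue, in which fewer cells of a type and less RNA per cell cannot be told apart.

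Ras-like GTPases bind GTP in their active state and GDP in their inactive state. Exchange factors switch them on, and GTPase-activating proteins (GAPs) switch them off. Rasd2, also named Rhes, is known for its enrichment in the medium spiny neurons of striatum, where it restrains signaling by G-protein-coupled receptors and takes part in mTOR signaling. Rasd1, also named Dexras1, is its closest relative and is induced by glucocorticoids. Rasgrp1 responds to calcium and diacylglycerol, and Rasgrp2 to calcium. Rasgrp2 acts mainly on Rap and is a known gene of striatal projection neurons. The Rasl10 and Rasl11 proteins are small Ras-like GTPases of which less is known.

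Promoter sequence is shown for Rasl10a, the gene on which the group was selected, and for the related pair Rasd1 and Rasd2, whose regional levels were opposite. RefSeq promoter sequence (build GRCr8) was found for 7 of the 8 genes, and Rasl10b had no entry. Each line holds the 250 bases before the transcript start, 5′ to 3′ on the strand of the gene, from chr14:84168891-84169140 (plus strand) for Rasl10a, chr10:45267683-45267932 (minus strand) for Rasd1 and chr19:13599778-13600027 (plus strand) for Rasd2. Capitals mark every match, on either strand, to 5 short motifs: the E-box CACGTG, the GC box GGGCGG, the core of the cAMP response element TGACG, the core of the TATA box TATAA and the CCAAT box.
Rasl10a: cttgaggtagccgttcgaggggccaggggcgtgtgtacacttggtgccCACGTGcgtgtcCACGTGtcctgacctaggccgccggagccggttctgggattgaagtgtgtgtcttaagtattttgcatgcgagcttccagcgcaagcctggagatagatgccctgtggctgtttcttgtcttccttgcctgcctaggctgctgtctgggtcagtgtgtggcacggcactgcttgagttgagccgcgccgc
Rasd1: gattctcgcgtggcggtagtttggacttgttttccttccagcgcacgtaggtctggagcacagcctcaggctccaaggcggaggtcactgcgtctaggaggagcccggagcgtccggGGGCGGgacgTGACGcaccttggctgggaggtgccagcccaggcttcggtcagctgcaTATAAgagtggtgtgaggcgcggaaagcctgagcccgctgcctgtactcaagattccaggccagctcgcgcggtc
Rasd2: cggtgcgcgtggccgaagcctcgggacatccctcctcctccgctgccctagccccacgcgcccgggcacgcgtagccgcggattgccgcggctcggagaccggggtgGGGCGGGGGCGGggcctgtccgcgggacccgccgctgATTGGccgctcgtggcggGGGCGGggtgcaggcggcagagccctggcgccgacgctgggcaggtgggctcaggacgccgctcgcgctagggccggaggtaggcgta
Rasl10a held 2 E-boxes, which start 202 and 190 bases before the transcript start, and none of the other motifs. An E-box of these letters was present in 5.59% of the 33469 promoters of the same length. Rasd1 held 1 GC box, 1 TGACG and 1 TATAA, which occur in 30.5%, 18.2% and 24% of all promoters. Rasd2 held 3 GC boxes, of which a pair stand back to back, and 1 CCAAT box on the opposite strand (CCAAT in 34% of all promoters). Of the members not printed, Rasgrp2 held 1 E-box and 1 GC box, Rasl11b held 3 GC boxes and 1 CCAAT box, and Rasgrp1 and Rasl11a held 1 GC box each. The letters G and C made up 60.0% of the Rasl10a window, 64.0% of that of Rasd1 and 78.4% of that of Rasd2, against a median of 51.2% over all promoters. These matches describe the sequence, and binding was not measured.

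By the medians of marker lists the dissections matched their labels, but single arrays stood apart from their region. The mean of 13 measured markers of striatal neurons (of 15 listed) had a median of 11.9 in striatum, against 8.39 in frontal cortex and 8.18 in hippocampus, and 11 measured markers of pyramidal neurons (of 12 listed) had a median of 7.22 in striatum against 9.75 and 9.58. The striatum of risperidone replicate 3 was low in striatal markers, at 10.97 against 11.67 to 12.07 in the other striatum arrays. Array medians lay between 87.9 and 93.1 in frontal cortex and striatum and between 106.7 and 110.4 in hippocampus, and no source used here says whether the regions were normalized together. For each region 1 list of a neighboring tissue was read first (pyramidal neurons for striatum, olfactory bulb for frontal cortex, meninges and choroid plexus for hippocampus), and its mean stood over 0.5 above the mean of the region in 7 arrays, all from drug-treated rats. They were the striatum of risperidone replicate 3 (1.35) and of haloperidol replicates 5 (0.65) and 3 (0.51) for pyramidal neuron markers, the frontal cortex of risperidone replicates 2 (1.09) and 5 (0.82) for olfactory bulb markers, and the hippocampus of risperidone replicates 3 (1.27) and 2 (0.63) for meningeal and choroid plexus markers. Other lists stood as high in 4 more arrays: striatal markers in the frontal cortex of risperidone replicate 1 (0.69) and meningeal and choroid plexus markers in the striatum of vehicle replicate 1 (1.42), haloperidol replicate 1 (1.34) and risperidone replicate 5 (0.91). Leaving out these 4 arrays, an alternative chosen after seeing the data, changed no call of the 7 genes.

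Regional levels were compared in vehicle rats first, with limma and with Benjamini-Hochberg adjustment over all tested probe sets. To be called, a gene needed both an adjusted p under 0.05 and a difference of at least 1.2-fold. Rasgrp2 (1374872_at) differed most. Its log2 level was 10.75, 10.97, 11.01, 10.97 and 10.85 in the 5 striatum arrays, 6.58, 6.68, 6.70, 6.94 and 6.76 in frontal cortex and 6.59, 6.06, 6.33, 6.37 and 6.57 in hippocampus. Every striatum array was far above every array of the other regions. The level in striatum was 18.1-fold that in frontal cortex (log2 difference 4.18, standard error 0.12, adjusted p = 1.90e-27) and 23.1-fold that in hippocampus (4.53, standard error 0.12, adjusted p = 3.60e-29). Its other probe set (1374649_at) gave smaller differences of 2.27 and 1.97 in the same direction (adjusted p = 4.43e-22 and 1.06e-20).

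Rasd2 (1370372_at) also was highest in striatum. The 5 vehicle rats read 12.43, 12.48, 12.49, 12.63 and 12.58 in striatum, 9.78, 10.04, 9.76, 9.99 and 9.80 in frontal cortex and 9.09, 9.24, 9.38, 9.21 and 9.43 in hippocampus. The 3 regions did not overlap, and the order was striatum, frontal cortex, hippocampus. Striatum was 6.26-fold above frontal cortex (log2 2.65, standard error 0.12, adjusted p = 1.53e-21) and 9.53-fold above hippocampus (3.25, standard error 0.12, adjusted p = 5.71e-25), and hippocampus was lower than frontal cortex by -0.61 (adjusted p = 2.99e-05). The second probe set of Rasd2 (1370373_at) gave the same order, with differences of 2.18, 2.51 and -0.33.

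Rasd1 (1387908_at), the closest relative of Rasd2, had the opposite pattern. Its log2 level was 6.31, 6.58, 6.31, 6.37 and 6.57 in the striatum of vehicle rats, 8.32, 8.49, 8.53, 8.32 and 8.41 in their frontal cortex and 9.17, 9.54, 9.71, 9.51 and 9.29 in their hippocampus. Again the regions did not overlap, with hippocampus highest and striatum lowest. Striatum was 3.97-fold below frontal cortex (log2 -1.99, standard error 0.10, adjusted p = 1.02e-19) and 8.09-fold below hippocampus (-3.02, standard error 0.10, adjusted p = 6.37e-26), and hippocampus was above frontal cortex by 1.03 (adjusted p = 4.03e-11).

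Rasl10a (1376909_at) was low in striatum as well. Vehicle rats read 6.49, 6.58, 6.22, 6.77 and 6.98 in striatum, 8.99, 8.98, 9.15, 9.04 and 9.33 in frontal cortex and 8.81, 9.37, 8.97, 9.23 and 9.42 in hippocampus. Striatum stood clear below both other regions, which overlapped. The level in striatum was 5.63-fold below that in frontal cortex (log2 -2.49, standard error 0.16, adjusted p = 2.35e-17) and 5.86-fold below that in hippocampus (-2.55, standard error 0.16, adjusted p = 5.67e-18). The vehicle striatum arrays of this comparison are also those against which the drug groups were read when the group of genes was selected. Rasl11b (1383322_at) lay between 6.97 and 7.56 in striatum, between 8.39 and 8.69 in hippocampus and between 9.19 and 9.55 in frontal cortex, so that it fell in steps from frontal cortex to striatum. Its striatum level was 4.56-fold below frontal cortex (log2 -2.19, standard error 0.16, adjusted p = 2.50e-15) and 2.57-fold below hippocampus (-1.36, adjusted p = 7.32e-10), and hippocampus was below frontal cortex by -0.83 (adjusted p = 1.97e-05).

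Rasgrp1 and Rasl10b differed less between regions. Rasgrp1 (1369130_at) lay between 9.79 and 10.22 in the frontal cortex of vehicle rats, between 10.48 and 10.82 in hippocampus and between 10.58 and 10.89 in striatum. Both striatum and hippocampus were above frontal cortex, by 0.78 (standard error 0.11, adjusted p = 5.36e-08) and 0.68 (adjusted p = 8.60e-07). Striatum and hippocampus overlapped, and their difference of 0.10 (95% confidence interval -0.12 to 0.32, adjusted p = 0.402) was not called. Its other probe set (1369129_at) gave 0.81, 0.63 and 0.17 for these 3 differences, and the last was not called. Rasl10b (1376402_a_at) lay between 8.75 and 8.99 in frontal cortex, between 8.92 and 9.06 in hippocampus and between 9.10 and 9.48 in striatum. It was higher in striatum than in frontal cortex by 0.39 (standard error 0.07, adjusted p = 9.15e-06) and than in hippocampus by 0.28 (adjusted p = 5.01e-04). The second probe set of Rasl10b (1395534_at) differed by 0.39 from frontal cortex but by -0.10 from hippocampus (adjusted p = 0.188), and it was called higher in hippocampus than in frontal cortex (0.48, adjusted p = 5.79e-08), where the brightest was not (0.11, adjusted p = 0.181). These differences from hippocampus are as deposited, where hippocampus arrays had the highest medians. The second probe set was not read with the arrays brought to a common scale. The third (1398418_at), with a mean of 4.06 over all arrays, was too dim to be tested.

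In all, 7 of the 7 genes were called between striatum and frontal cortex (4 higher in striatum and 3 lower), where 44.1% of all genes were called and 17.7% were called higher. Between striatum and hippocampus 6 of 7 were called (3 higher and 3 lower), against 62% of all genes, 8.08% in the higher direction. Between hippocampus and frontal cortex 5 of 7 were called (Rasd1 and Rasgrp1 higher in hippocampus, and Rasl11b, Rasd2 and Rasgrp2 lower), against 52.8% of all genes, so a call alone was common. The median of the 7 log2 differences was 0.39, 0.10 and 0.06 in these comparisons, and the median of all genes was -0.06, -0.30 and 0.25. When arrays were centred on their medians or quantile normalized, the all-gene medians moved to -0.02 and 0.02 between striatum and hippocampus, and every one of these calls of the 7 genes was kept with its direction. The share of all genes called between striatum and hippocampus was then 43.8% and 44.1%, with 19.3% and 22.8% higher in striatum, and between hippocampus and frontal cortex 29.6% and 28.8%, with 13.2% and 14.1% higher in hippocampus, against 46.7% as deposited. Rasgrp1 was then also called higher in striatum than in hippocampus (0.37 and 0.44), and Rasl10a and Rasl10b turned from slightly above to slightly below frontal cortex in hippocampus (-0.20 and -0.18 for Rasl10a, -0.16 and -0.14 for Rasl10b, not called). As deposited, the probe sets of Rasgrp2 gave opposite called differences between hippocampus and frontal cortex, -0.35 (adjusted p = 0.0118) on the brightest and 0.30 (adjusted p = 0.00671) on the other. Centring the arrays moved the median of all genes in this comparison from 0.25 to -0.01 and the brightest probe set to -0.61. The other probe set was not read at that scale, so its opposite call is shown for the deposited scale only. As deposited, the brightest was not called without vehicle replicate 2 (-0.28, adjusted p = 0.0704) or 4 (-0.29, adjusted p = 0.0649). The call of Rasl10b between striatum and hippocampus fell under 1.2-fold without vehicle replicate 4 (0.25) or 5 (0.23).

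**Figure D1:**
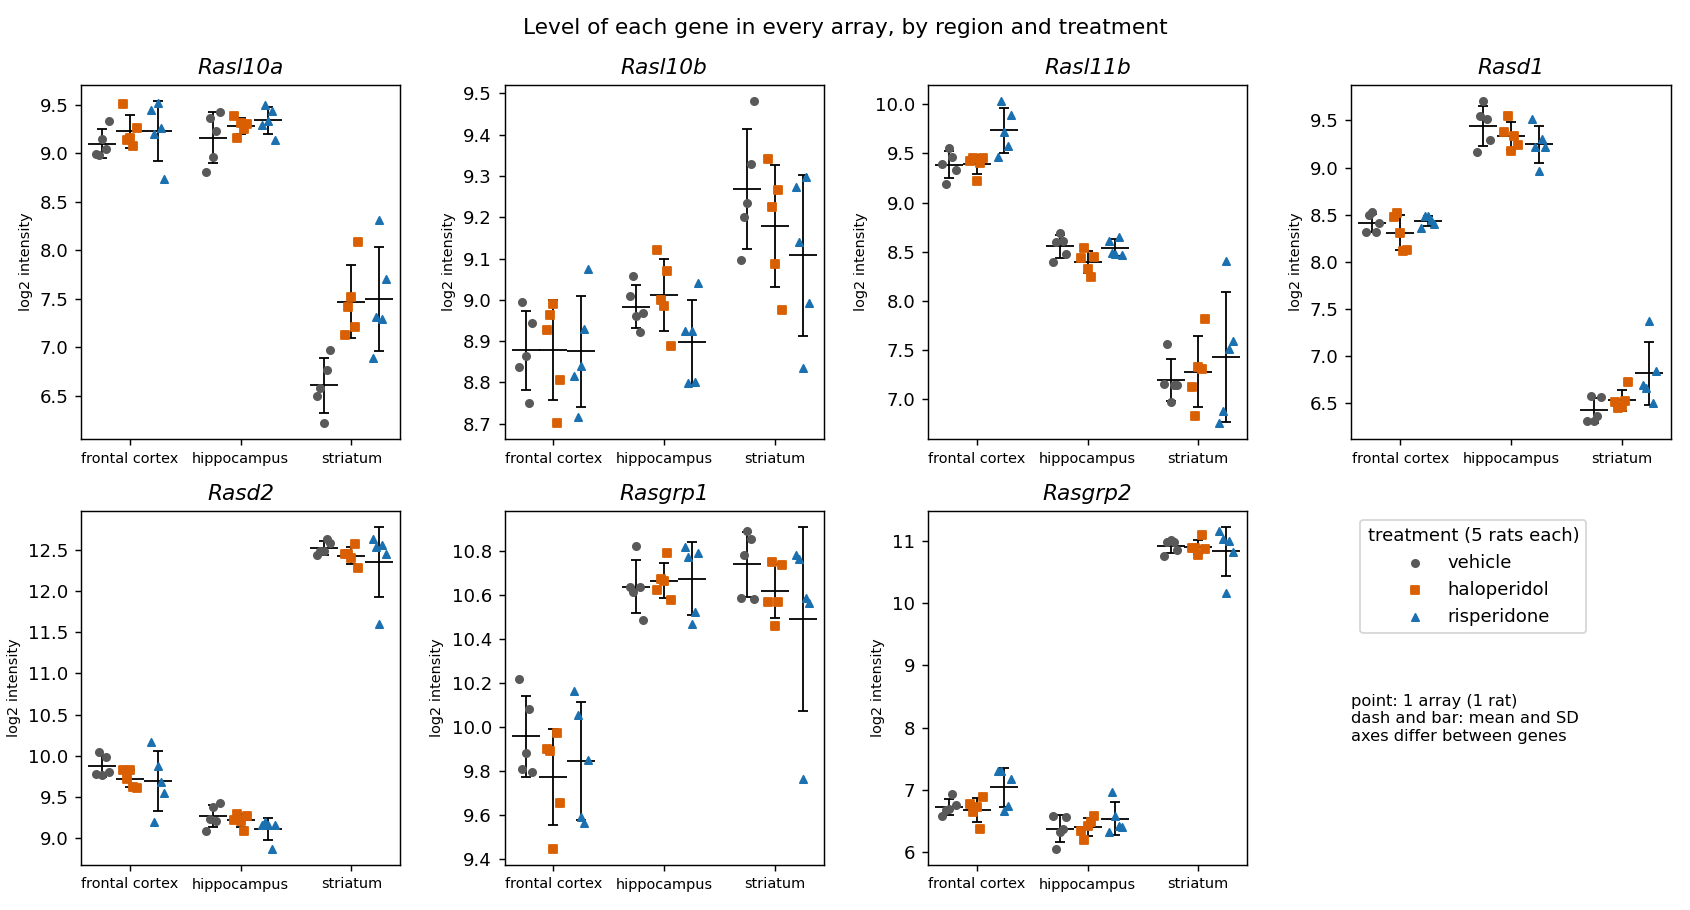
Log2 intensity (y axis, different for each gene) of the brightest probe set of 7 genes in each of 45 arrays, by region and treatment (x axis). A point is 1 array, and the dash and bar are the mean and SD of 5 rats. Rasd2 and Rasgrp2 are highest in striatum and Rasl10a, Rasl11b and Rasd1 lowest, and the 5 haloperidol points of Rasl10a in striatum lie above all 5 vehicle points.

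**Figure D2:**
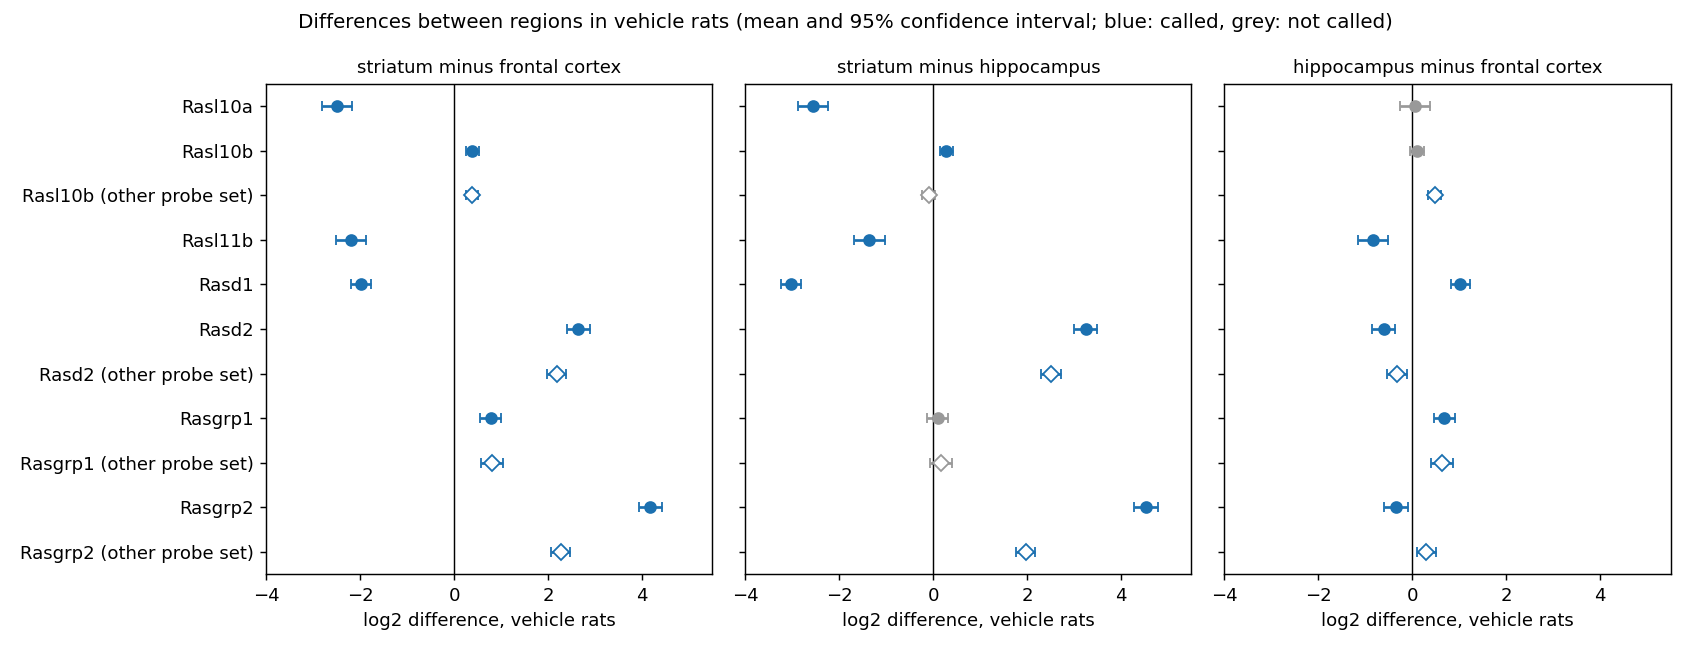
Log2 difference between regions in 5 vehicle rats (x axis) for 11 tested probe sets (y axis), with the 95% confidence interval. Filled circles are the brightest probe set of a gene and open diamonds its other probe sets, blue where called and grey where not. Differences from striatum run from -3.02 for Rasd1 to 4.53 for Rasgrp2.

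In drug-treated rats the regions are described without calls, since the striatum values of these rats were used in the selection. In haloperidol rats striatum differed from frontal cortex by 4.21 for Rasgrp2, 2.71 for Rasd2, -1.77 for Rasd1 and -2.11 for Rasl11b, and in risperidone rats by 3.79, 2.66, -1.62 and -2.31, with the directions of vehicle rats. For Rasl10a the difference was -1.76 after haloperidol and -1.73 after risperidone, and that from hippocampus was -1.81 and -1.84. Rasl10b was higher in striatum than in frontal cortex by 0.30 and 0.23 and than in hippocampus by 0.17 and 0.21. Rasgrp1 was above frontal cortex by 0.84 and 0.65, but its small difference from hippocampus, 0.10 in vehicle rats, was -0.05 after haloperidol and -0.18 after risperidone, with -0.06 and -0.15 on its other probe set. These are values as deposited. In vehicle rats the difference was 0.37 with centred and 0.44 with quantile normalized arrays, and the drug groups were not read at those scales. The risperidone mean in striatum includes replicate 3, at 9.76 against 10.56 to 10.78 in the others.

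Rasl10a, the gene on which the group was selected, is described in striatum without a test. The 5 haloperidol rats read 7.13, 7.41, 7.52, 7.21 and 8.08 and the 5 risperidone rats 6.89, 7.32, 8.31, 7.29 and 7.70, against 6.22 to 6.98 in vehicle rats. All haloperidol values and 4 of 5 risperidone values were above the highest vehicle value, and risperidone replicate 1 fell within the vehicle range. The log2 difference was 0.86 after haloperidol (standard error 0.18, 1.82-fold) and 0.89 after risperidone (standard error 0.18, 1.86-fold). Rasl10a in the striatum of every treated rat lay below the lowest value of frontal cortex in any rat (8.73). Across all genes, 0.263% were called in this comparison after haloperidol and 3% after risperidone.

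For each of the other 6 genes, the values of both drug groups overlapped those of vehicle in striatum. How many of all genes show no such overlap was not counted, so the overlap of these genes has no background to be read against. Rasd1 was 0.11 higher after haloperidol and 0.39 higher after risperidone (standard error 0.12). Its risperidone values of 6.70, 6.66, 7.38, 6.51 and 6.85 overlapped the vehicle range of 6.31 to 6.58 in 1 rat. Rasl11b differed by 0.09 and 0.23 (standard error 0.18), with 8.41 in risperidone replicate 3 and 6.76 to 7.59 in the other 4 rats of that group. The genes that are high in striatum lay slightly lower with both drugs: Rasd2 by -0.09 after haloperidol and -0.17 after risperidone, Rasgrp1 by -0.12 and -0.25, Rasl10b by -0.09 and -0.16 and Rasgrp2 by -0.01 and -0.08. Their other tested probe sets gave -0.13 and -0.19 for Rasd2, -0.16 and -0.31 for Rasgrp1, -0.11 and -0.18 for Rasl10b and -0.18 and -0.22 for Rasgrp2. On that probe set of Rasgrp2, 3 of 5 arrays of each drug were below the lowest vehicle array. In risperidone rats Rasd2 read 12.62, 12.53, 11.60, 12.55 and 12.45 and Rasgrp2 11.15, 11.03, 10.16, 10.99 and 10.81, so that replicate 3 was the lowest of its group for both. Over the 7 genes the median difference was -0.01 after haloperidol and -0.08 after risperidone, and 3 of 7 were positive with each drug (median of all genes -0.02 for each).

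**Figure D3:**
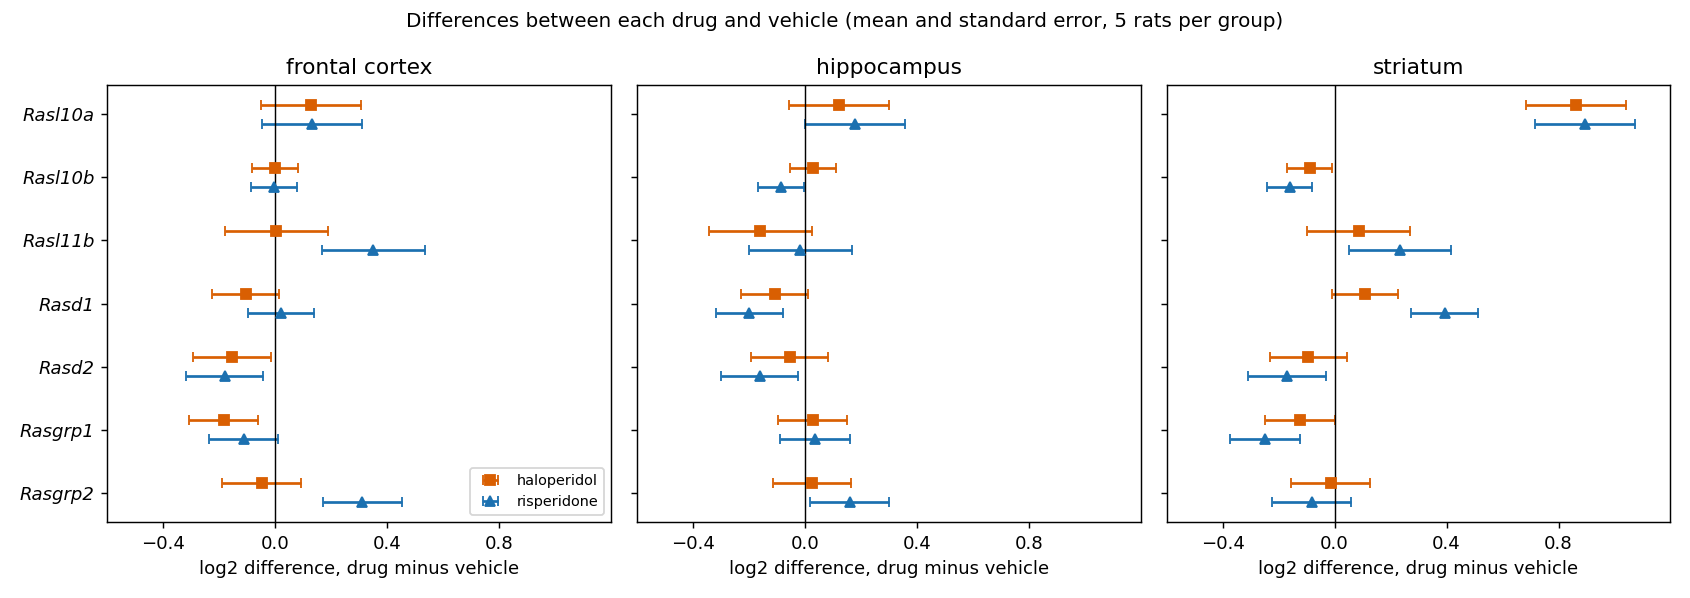
Log2 difference between each drug and vehicle (x axis) with its standard error for 7 genes (y axis) in 3 regions, with 5 rats per group, haloperidol as squares and risperidone as triangles. Rasl10a in striatum stands at 0.86 and 0.89, and the differences of the other genes, on their brightest probe sets, lie between -0.25 and 0.39.

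Markers of pyramidal neurons moved with these values in striatum. Their mean lay between 6.87 and 7.25 in vehicle rats, between 7.04 and 8.02 after haloperidol and between 6.89 and 8.71 after risperidone. Of the 11 markers, 9 were above the highest vehicle array in risperidone replicate 3, 8 each in risperidone replicate 5 and in haloperidol replicates 3 and 5, and from 1 to 6 in the other 6 drug arrays. Below the lowest vehicle array were 1 each in risperidone replicates 3 and 5 and haloperidol replicate 5, and 0 in haloperidol replicate 3. From 0 to 2 were below it in the other 6 drug arrays, and in risperidone replicate 1 there were 1 above and 2 below. Tbr1, a transcription factor of cortical neurons, and Neurod6, one of pyramidal neurons, were dim in vehicle striatum at 4.49 and 5.39 and reached 5.72 and 8.46 in the highest striatum array for each. The listed markers Camk2n1 and Lamp5 were already bright in vehicle striatum, at 11.59 and 11.40 against 12.41 and 11.76 in vehicle frontal cortex. A marker of the list, Rasgrf2, is also among the exchange factors. The 4 highest Rasl10a values in striatum were those of risperidone replicate 3 (8.31), haloperidol replicate 5 (8.08), risperidone replicate 5 (7.70) and haloperidol replicate 3 (7.52), and these arrays also were the 4 highest in pyramidal markers. In the 4 drug arrays whose marker mean lay within the vehicle range (haloperidol replicate 2 and risperidone replicates 1, 2 and 4), Rasl10a read 7.41, 6.89, 7.32 and 7.29, against 6.22 to 6.98 in vehicle rats. These values were used in the selection, so they are a description and no test. Over the 15 striatum arrays, with the treatment means removed, the marker mean correlated with Rasl10a at 0.85, with Rasl11b at 0.90, with Rasd1 at 0.82, with Rasl10b at -0.73, with Rasgrp1 at -0.74, with Rasgrp2 at -0.82 and with Rasd2 at -0.84. The signs were those of the difference between frontal cortex and striatum in vehicle rats for all 7 genes. Each array is 1 dissection shared by all genes, so the 7 correlations are not separate observations. What lies behind them was not tested.

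Without the 3 striatum arrays over 0.5, Rasl10a was 0.64 higher after haloperidol (standard error 0.15) and 0.70 higher after risperidone (standard error 0.14). With the marker mean as a covariate these differences were 0.51 and 0.52 (standard error 0.14 for each). Rasl11b became -0.12 and -0.0040 without the arrays (standard error 0.14 and 0.13) and -0.32 and -0.20 with the covariate (standard error 0.11 for each). Without the arrays it was thus within its standard error of 0 for both drugs, and with the covariate it was negative. Rasd1 stood at 0.04 and 0.26 without the arrays and at -0.08 and 0.19 with the covariate (standard error 0.10 for each). Its negative value after haloperidol was within the standard error. On the brightest probe sets, the slightly lower values of the striatum-high genes mostly did not remain. Rasd2 was at -0.03 and 0.02 without the arrays and at 0.13 and 0.07 with the covariate, Rasgrp2 at 0.07 and 0.07 and at 0.17 and 0.12, Rasgrp1 at -0.14 and -0.08 and at 0.04 and -0.08, and Rasl10b at 0.0027 and -0.09 and at 0.03 and -0.03. Without the 3 striatum arrays high in meningeal and choroid plexus markers, Rasl10a was 0.96 higher after haloperidol and 0.81 higher after risperidone (standard error 0.19 for each). Leaving out 1 rat at a time gave Rasl10a differences of 0.71 to 0.96 after haloperidol and 0.69 to 1.05 after risperidone.

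**Figure D4:**
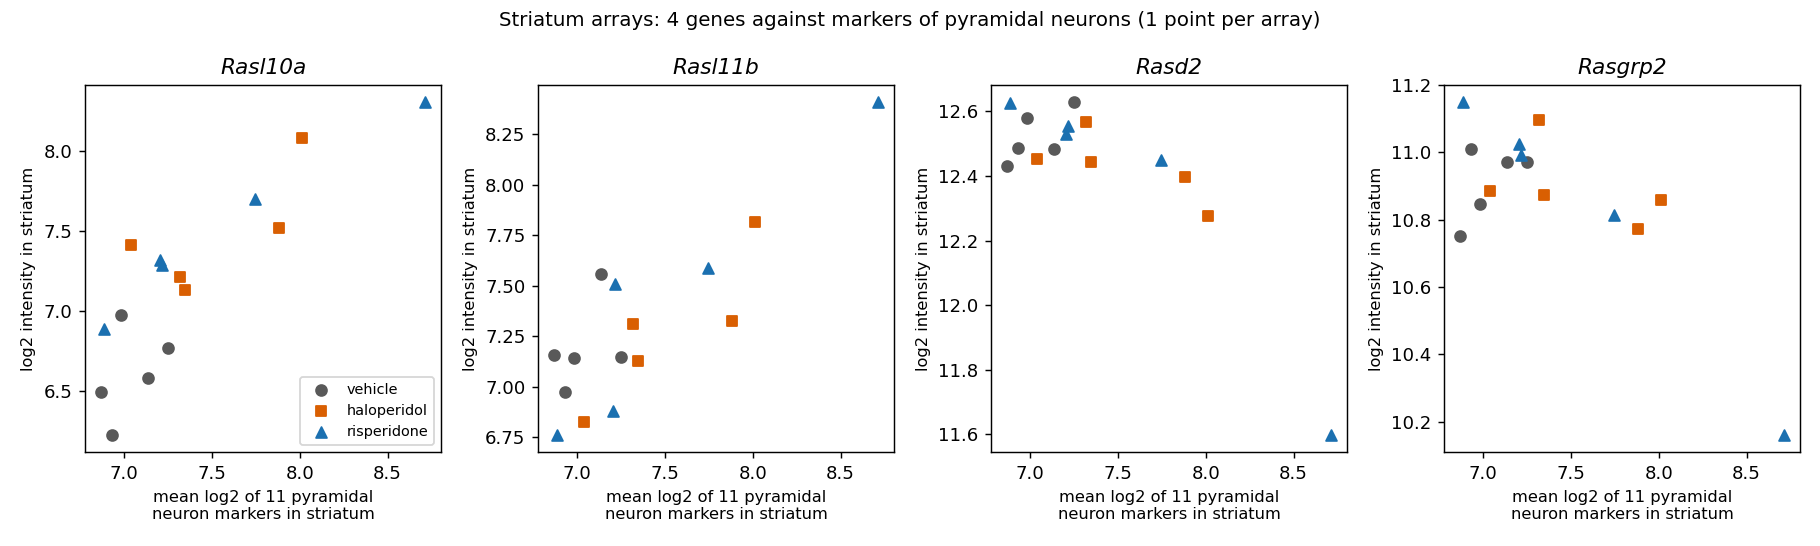
Log2 intensity of Rasl10a, Rasl11b, Rasd2 and Rasgrp2 (y axis) against the mean log2 intensity of 11 pyramidal neuron markers (x axis) in 15 striatum arrays, 1 point per array, by treatment. The array at the far right is risperidone replicate 3 (marker mean 8.71), with Rasl10a at 8.31 and Rasd2 at 11.60. The 5 vehicle points lie at the left, with Rasl10a from 6.22 to 6.98.

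In frontal cortex and hippocampus, whether the drugs changed these genes could be tested. None of the 7 genes was called against vehicle in either region by limma. In frontal cortex 0.146% of all genes were called after haloperidol and 3.3% after risperidone, and in hippocampus 0% and 0.117%. At an unadjusted p under 0.05, 0 of 7 genes passed after haloperidol in frontal cortex, where 12.6% of all genes passed, and 0 of 7 after either drug in hippocampus, where 3.45% and 16.3% of all genes passed. After risperidone in frontal cortex 1 of 7 passed, Rasgrp2, and 23.9% of all genes did. Rasgrp2 read 7.30, 7.31, 6.67, 6.75 and 7.18 in the frontal cortex of risperidone rats, against 6.58 to 6.94 in vehicle rats. The groups overlapped, and the log2 difference was 0.31 (standard error 0.14, adjusted p = 0.174). Replicate 1, with 7.30 on this probe set and 6.95 on the other, was the frontal cortex array highest in striatal markers, and replicates 2 and 5, with 7.31 and 7.18, were the highest in olfactory bulb markers. Without replicate 1 the difference was 0.25 (adjusted p = 0.331), and without replicates 2 and 5 it was 0.17 (adjusted p = 0.454). Rasl11b read 9.47, 10.03, 9.72, 9.57 and 9.89 after risperidone and 9.19 to 9.55 in vehicle rats, a difference of 0.35 (standard error 0.18, 95% confidence interval -0.02 to 0.72, adjusted p = 0.251). Its highest values, 10.03 and 9.89, were in replicates 2 and 5, the frontal cortex arrays high in olfactory bulb markers, in which Rasd2 was lowest (9.20 and 9.55). Over the 15 frontal cortex arrays the marker mean correlated with Rasl11b at 0.79 and with Rasd2 at -0.78, treatment means removed. Without these arrays the difference of Rasl11b was 0.20.

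No difference of Rasl10a was called outside striatum. It differed by 0.13 with each drug in frontal cortex (95% confidence interval -0.23 to 0.49 for each) and by 0.12 and 0.18 in hippocampus (-0.24 to 0.48 and -0.18 to 0.54). All of these intervals include 0. The risperidone difference in frontal cortex was 0.32 without the arrays high in olfactory bulb markers (adjusted p = 0.207), 0.31 with these markers as a covariate (adjusted p = 0.337) and 0.05 without the array high in striatal markers (adjusted p = 0.900). In hippocampus the other 6 genes differed from vehicle by -0.20 to 0.16, with Rasd1 lowest at -0.20 after risperidone (standard error 0.12, adjusted p = 0.396). The difference of a drug effect between hippocampus and frontal cortex was called for 0 of 7 genes with each drug (0% of all genes after haloperidol and 1.26% after risperidone), and 0 of 7 passed at an unadjusted p under 0.05 (7.85% and 15.8% of all genes). Such a difference was not tested for striatum, whose drug comparisons were used in the selection.

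The drugs were also compared with each other. Risperidone against haloperidol gave 0 of 7 calls in frontal cortex and hippocampus, against 0.878% and 0% of all genes. At an unadjusted p under 0.05, 1 of 7 genes passed in frontal cortex and 0 of 7 in hippocampus, where 23.5% and 5.55% of all genes did. The gene was Rasgrp2, higher after risperidone by 0.36 (standard error 0.14, adjusted p = 0.141) and by 0.26 on its other probe set (adjusted p = 0.181). Without the array high in striatal markers these were 0.30 and 0.20 (adjusted p = 0.253 and 0.340). In striatum, whose drug values were used in the selection, the differences are a description: 0.03 for Rasl10a and 0.28 for Rasd1 (standard error 0.18 and 0.12), and 0% of all genes were called there.

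The genes most like each member over the 45 arrays followed the regions. For Rasgrp2 they were Drd2, the dopamine D2 receptor, Adora2a, an adenosine receptor of striatal neurons, and Ppp1r1b, a phosphatase inhibitor of striatal neurons (Pearson r 0.99 for each). Rasd2 was most like Scn4b, a sodium channel subunit, B3gnt2 and Pde10a, a striatal phosphodiesterase (0.99 for each). Rasd1 was most like Neurod1, a neuronal transcription factor, Cpne4 and Cpeb1 (0.99 for each), and Rasl10a was most like Basp1, a membrane protein of growing axons, Olfm1 and Ncald, a neuronal calcium sensor (0.98, 0.97 and 0.97). Rasl11b was most like Stx1a, a syntaxin of synaptic release, C2h3orf80 and Car10 (0.96 for each). Rasl10b was most like Plcg1, a phospholipase, Plag1 and Shank3, a synaptic scaffold (0.87, 0.86 and 0.86). Rasgrp1 was most like Cacnb2, a calcium channel subunit, Hnrnpm and Pptc7 (0.94 for each). All arrays of a region share its level in these values. With group means removed, Rasl10a was closest to Basp1, Cd83 and Baalc (0.77, 0.76 and 0.76) and Rasl11b to Basp1, Gabra5, a GABA receptor subunit, and Neurod6 (0.85 for each). Rasd2 was then closest to Pde10a, Foxp1, a transcription factor of striatal neurons, and Cacna2d3 (0.87, 0.81 and 0.79), and Rasgrp2 to Kcna5, Irf2bpl and Gnal, the G protein subunit of striatal dopamine signaling (0.73, 0.73 and 0.71). For Rasd1 the closest were Bok, Tmem215 and Nectin3 (0.76, 0.74 and 0.73), for Rasgrp1 Trim32, Atf2 and Gnb2 (0.82 for each) and for Rasl10b Parp6, Inpp4a and Adgrb2 (0.83, 0.81 and 0.80). Over the log2 levels of all 45 arrays, the pairs of probe sets of a gene correlated at 1.00 for Rasd2, 0.99 for Rasgrp1, 0.97 for Rasgrp2 and 0.54 for Rasl10b. With group means removed these correlations were 0.88, 0.97, 0.57 and 0.72.

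Other genes of Ras signaling were read from fixed lists. Of 19 measured Ras family GTPases (of 28 listed), 0 were called after haloperidol in any region. After risperidone 1 was higher in frontal cortex (Rerg, an estrogen-regulated Ras-like growth inhibitor), 1 was lower in striatum (Rhebl1, a relative of the mTOR activator Rheb) and 0 were called in hippocampus. Of all genes, 3.3%, 3% and 0.117% were called in these 3 risperidone comparisons. After haloperidol the shares were 0.146%, 0.263% and 0%. A single call in so short a list is not a result about the list. Rerg read 6.51, 7.93, 6.55, 6.14 and 7.38 in the frontal cortex of risperidone rats and 6.06 to 6.17 in vehicle rats, with the highest values again in replicates 2 and 5. Its rise of 0.78 (standard error 0.21, adjusted p = 0.0233) was 0.27 without these 2 arrays (adjusted p = 0.360) and -0.02 with the olfactory bulb markers as a covariate, and the call was lost when any of 5 rats was left out. The difference of this drug effect between hippocampus and frontal cortex was called for Rerg (-1.09, adjusted p = 0.0290), and was -0.46 without the arrays high in neighboring tissue (adjusted p = 0.35). Rhebl1 differed by -0.28 in a striatum comparison of the kind used for the selection, and by -0.26 without the arrays high in pyramidal markers, where it was not called. Rerg (0.85) and Nkiras2 (0.29), an inhibitor of NF-kappaB signaling, were higher after risperidone than after haloperidol in frontal cortex (adjusted p = 0.0383 for each), and both calls were lost without the arrays high in olfactory bulb markers (0.34 and 0.24).

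Among 13 measured exchange factors (of 20 listed), 1 was called in a drug comparison with vehicle, Rapgef4, lower in frontal cortex after risperidone by -0.63 (adjusted p = 0.00357). Rapgef4, an exchange factor for Rap that responds to cAMP, read 10.81, 10.82, 11.08, 11.06 and 10.50 after risperidone and 11.27 to 11.70 in vehicle rats, without overlap. Its difference was -0.53 without the arrays high in olfactory bulb markers (adjusted p = 0.0352) and -0.43 with these markers as a covariate (adjusted p = 0.159). It also was lower after risperidone than after haloperidol in frontal cortex (-0.49, adjusted p = 0.0423), and its risperidone effect differed between hippocampus and frontal cortex by 0.74 (adjusted p = 0.0152); neither was called without the marker-high arrays (adjusted p = 0.153 and 0.121). Of 12 measured GAPs (of 18 listed) 0 were called in any drug comparison. Of 12 measured effectors (of 20 listed), 1 was called, Rassf8, a Ras-association domain protein, higher in frontal cortex after risperidone by 0.50 (standard error 0.15, adjusted p = 0.0371). Rassf8 read 7.13, 8.12, 6.98, 6.99 and 7.64 there, highest in replicates 2 and 5 once more, against 6.78 to 6.99 in vehicle rats. Its difference was 0.19 without them (adjusted p = 0.430), and the call was lost when any of 7 rats was left out. The risperidone effect on Ksr1, a scaffold of the Raf kinases, differed between hippocampus and frontal cortex by -0.50 (adjusted p = 0.0499), and by -0.33 without the marker-high arrays (adjusted p = 0.35). Of 12 measured glucocorticoid-responsive genes (of 16 listed), read because Rasd1 is one of their kind, 1 was called, Fkbp5, a chaperone of the glucocorticoid receptor, lower in striatum after risperidone by -0.36. It was at -0.23 without the arrays high in pyramidal markers, and was not called. Of all genes, 3.3% were called after risperidone in frontal cortex and 3% in striatum. The share was 0.878% for risperidone against haloperidol in frontal cortex and 1.26% for the risperidone effect between hippocampus and frontal cortex. Single calls in these short lists are not results about the lists.

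Between striatum and frontal cortex the 4 lists of Ras signaling held more lower than higher calls in striatum, as did all genes (17.7% higher and 26.4% lower). With quantile normalization all genes turned to 22.8% higher and 20.9% lower, while the lists kept more lower than higher calls (4 and 7 for the Ras family, 2 and 6 for exchange factors, 2 and 7 for GAPs and 1 and 3 for effectors). In vehicle rats 3 of 19 Ras family genes were higher and 7 lower in striatum than in frontal cortex, among them Rem2 (3.84 higher, adjusted p = 4.59e-25), a GTPase that inhibits calcium channels, and Rerg (2.87 higher, adjusted p = 2.93e-17). Of the exchange factors 2 were higher and 6 lower, led by Rasgrf2 (-1.82, adjusted p = 8.73e-16) and Rasgrf1 (-0.90, adjusted p = 9.96e-16), which couple calcium to Ras. Of the GAPs 2 were higher and 7 lower, led by Rasal1 (-2.28, adjusted p = 3.01e-19) and Rap1gap2 (-1.55, adjusted p = 6.22e-19). Of the effectors 1 was higher and 4 lower, led by Rassf5 (-2.94, adjusted p = 1.70e-20) and Rassf3 (-0.72, adjusted p = 1.37e-07). Median differences were -0.12 for the family, -0.19 for exchange factors, -0.63 for GAPs and -0.05 for effectors, against -0.06 for all genes. Of the glucocorticoid-responsive genes 6 were higher and 2 lower in striatum, led by Fkbp5 (0.88, adjusted p = 5.83e-11) and the clock gene Per1 (0.60, adjusted p = 4.40e-09), with a median of 0.28.

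Against hippocampus the 4 lists of Ras signaling again held more lower than higher calls, as did all genes (8.08% higher and 53.9% lower). Of the Ras family 2 genes were higher and 12 lower, led by Rit1 (-0.97, adjusted p = 4.17e-20) and Rap1b (-0.80, adjusted p = 2.42e-15), with a median of -0.34. Of the exchange factors 1 was higher and 9 lower, led by Rapgef5 (-1.01, adjusted p = 4.54e-21) and Rasgrf2 (-2.58, adjusted p = 6.95e-21), with a median of -0.46. Of the GAPs 1 was higher, Rap1gap (1.32, adjusted p = 1.80e-17), which switches off Rap, and 9 were lower, led by Rasal1 (-3.02, adjusted p = 1.64e-23), with a median of -0.68. Of the effectors 0 were higher and 6 lower, led by Ksr1 (-2.37, adjusted p = 8.55e-24) and Rgs14 (-0.95, adjusted p = 1.29e-14), and of the glucocorticoid-responsive genes 3 were higher and 3 lower, led by Sult1a1 (-1.13, adjusted p = 2.58e-10) and Mt2A (-0.53, adjusted p = 5.52e-06). With arrays centred on their medians, 19.3% of all genes were called higher and 24.4% lower. The excess of lower calls was then gone for the Ras family (5 higher and 5 lower), and the glucocorticoid-responsive genes stood at 4 higher and 1 lower. The excess was kept for exchange factors (2 and 6), GAPs (1 and 7) and effectors (1 and 4).

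Between hippocampus and frontal cortex more list genes were called higher than lower in hippocampus, as were all genes (46.7% higher and 6.11% lower). With arrays centred on their medians all genes turned to 13.2% higher and 16.5% lower. The direction turned likewise for the Ras family (3 higher and 6 lower) and the GAPs (2 and 4). It was kept for exchange factors (3 and 1), effectors (5 and 3) and glucocorticoid-responsive genes (5 and 2). As deposited, the counts were 6 higher and 0 lower for the Ras family, led by Rem2 (2.84, adjusted p = 7.78e-21) and Rerg (3.37, adjusted p = 5.09e-19), and 8 higher and 1 lower for exchange factors, led by Ralgps2 (1.22, adjusted p = 2.79e-15) and Kndc1 (1.24, adjusted p = 2.07e-11). They were 4 higher and 1 lower for GAPs, led by Sipa1l3 (1.91, adjusted p = 4.60e-19) and Rasal1 (0.73, adjusted p = 2.41e-06), and 6 higher and 2 lower for effectors, led by Ksr1 (1.97, adjusted p = 1.56e-20) and Rgs14 (1.09, adjusted p = 7.35e-16). Of the glucocorticoid-responsive genes 7 were higher and 1 lower, led by Fkbp5 (1.05, adjusted p = 8.64e-13) and Errfi1 (0.69, adjusted p = 3.33e-10).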

How the data were processed

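Gene expression was measured on 45 arrays of frontal cortex, hippocampus and striatum from 15 rats. The authors deposited linear intensities after RMA, made with R 2.7.2 per the labels, a method that corrects background, makes the arrays' distributions alike and fits 1 value per probe set; such values compress differences of dim probe sets. Intensities were put on the log2 scale. Probe sets with a mean at or above the 40th percentile (log2 5.88) were kept and 50 Affymetrix control sets left out. Symbols came from the platform annotation, and of the tested probe sets 14116 carried 1 symbol, 306 several and 4187 none.

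A mean for each of 9 groups was fitted with limma 3.58.1 in R 4.3.3. The 3 arrays of a rat were linked by a shared correlation of 0.226 (39.9 degrees of freedom). Benjamini-Hochberg adjustment was made separately per comparison. Calls needed an adjusted p under 0.05 and 1.2-fold. The number of arrays limits precision. Data were simulated for risperidone against vehicle in frontal cortex (18609 probe sets), with 1 spread per probe set for all groups. There 90 of 100 changes of 1.5-fold and 99 of 100 of 2-fold were recovered, with 6 false calls. The simulation held no arrays high in markers of neighboring tissue, as the real risperidone group did, so it does not give the recovery in that group.

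The members, gene lists and marker lists were chosen with earlier results of these data known. All member probe sets are named, with the 2 genes of smallest p among those called of each pathway list in each comparison and the 3 genes most correlated with each member. The rat numbers pair the 3 regions of a rat; deviations of arrays of the same rat correlated at 0.0145 to 0.669. Alternatives were other filters, blocks, normalizations and variance priors, another probe set for a gene, marker-high arrays left out or modelled, and each rat left out. A further set of marker-high arrays was left out after seeing the data.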

Additional observations from a re-analysis of the deposited data

Results flagged for a closer look

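In 7 of 99 groups of 5 arrays tested, 1 array stood apart from the other 4 by Dixon's criterion at the 95% level, and chance marks about 1 group in 20. In the striatum of risperidone replicate 3, Rasd2 read 11.60 (12.45 to 12.62 in the other 4 rats) and 9.53 on its other probe set (10.36 to 10.60), and Rasgrp1 read 9.76 (10.56 to 10.78). This array was the highest of all striatum arrays in pyramidal neuron markers, and the part of that in these values was not tested beyond the fits given above. Rasd1 in the striatum of haloperidol replicate 5 read 6.73 (6.45 to 6.52 in the others), in another array high in these markers. In frontal cortex, Rasl11b read 9.22 in haloperidol replicate 3 (9.40 to 9.46 in the others). In hippocampus, Rasd2 read 8.87 in risperidone replicate 4 (9.15 to 9.19 in the others) and, on its other probe set, 7.81 in vehicle replicate 1 (7.996 to 8.039).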

How the results depend on the processing

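Numbers of called genes held within 1.5 times under every alternative run, with 7 for striatum against frontal cortex, 5 to 6 for striatum against hippocampus and 4 to 5 for hippocampus against frontal cortex when 1 rat was left out, and 0 in the drug, drug-against-drug and interaction comparisons. The number in the labels was only a number across treatments: deviations of same-numbered rats correlated above 0.1 in 6 of 30 pairs (-0.38 to 0.55). With it as a replicate block the counts were 7, 6, 5 and 0, and no call changed. Rasl10a in striatum moved by more than its spread under 1 alternative, the pyramidal markers as a covariate (0.51 after haloperidol). Its range with 1 rat left out was 0.71 to 0.96 after haloperidol and 0.69 to 1.05 after risperidone. Rasl10b between striatum and hippocampus was under 1.2-fold with the covariate (0.20). Whether pyramidal tissue or the drugs account for these differences was not tested. For the 7 member genes, a call ended in 5 pairings of a comparison with an alternative, and 0 calls reversed. Leaving out vehicle replicate 4 ended a call of Rasl10b and one of Rasgrp2. List genes lost calls more often: of 11 drug and interaction calls, 10 were lost without the marker-high arrays and 11 with the covariate, and 0 to 8 single rats ended a call when left out. The 4 arrays high in other neighboring tissue, left out as an alternative added later, changed no member call and ended 3 of those 11. Array intensities give no depth, and the dim probe set of Rasl10b was left out for low signal.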
